A study of Homo sapiens with 6 samples.

Results

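The lysosome is the acid compartment in which cells break down proteins, glycans and lipids, and 38 genes that encode its enzymes, membrane proteins and 2 of its transcriptional regulators were followed in AC16 cells exposed to doxorubicin. The genes were taken by symbol from a list drawn up by function, with earlier results of these data known, and all 38 were found among the 58299 gene identifiers of the count table. The tested cells received 100 nM doxorubicin for 48 h and the comparison cells received the vehicle, 0.1% DMSO, for the same time, with 3 libraries in each group. AC16 is an immortal human line, made by fusing cells of ventricular tissue with a transformed fibroblast line, so each group is 1 cell line in culture. Doxorubicin is an anthracycline that traps type II topoisomerases on DNA. The series title sets the comparison in a study of doxorubicin toxicity in cardiac cells and of the antioxidant regulator NRF2.

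Lysosomal enzymes are made in the endoplasmic reticulum, tagged with mannose 6-phosphate in the Golgi and carried by receptors to the lysosome, where a proton pump keeps the pH low. Inherited loss of single enzymes leaves their substrates undigested and causes the lysosomal storage diseases. Many of these genes carry a short promoter element, the CLEAR element, that is bound by TFEB and TFE3, transcription factors held in the cytoplasm by the kinase complex mTORC1 when nutrients are plentiful. A lysosomal beta-galactosidase activity, encoded by GLB1, is a classical stain of senescent cells, and doxorubicin is a common inducer of senescence in culture.

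Library totals ranged from 17252862 to 19571731 counts. The p53 target CDKN1A, which encodes the cell cycle inhibitor p21, checked the treatment labels, with 5811 to 6450 CPM (read counts relative to library size, scaled by TMM) in the doxorubicin libraries against 162 to 182 CPM in the DMSO libraries. MDM2, another p53 target, had 884 to 940 CPM in doxorubicin libraries against 49.3 to 56.7 CPM in DMSO libraries. The series title calls AC16 cells cardiomyocytes, but none of 10 cardiomyocyte markers passed the expression filter, and each had 10 counts or fewer in every library. Their summed level was 0.964 to 1.85 CPM in doxorubicin libraries against 0.307 to 0.390 CPM in DMSO libraries. All 10 fibroblast markers passed it, with a summed level of 5648 to 8202 CPM in doxorubicin libraries against 15519 to 18082 CPM in DMSO libraries. Of the 10, 7 fell (70%) and 0 rose, where 32.0% of all tested genes fell and 32.7% rose. The 7 include COL1A1, a type I collagen chain, at 3156 ± 730.3 CPM after doxorubicin and 9864 ± 989.9 CPM in DMSO, and PDGFRB, a growth factor receptor, at 56.4 ± 16.3 CPM after doxorubicin and 138 ± 13.4 CPM in DMSO (SD, n = 3 each). Of 11 macrophage and monocyte markers, 3 passed, with FCGR3A and TYROBP at 0 in every library, and the summed level was 4.98 to 5.83 CPM in doxorubicin libraries against 3.57 to 4.52 CPM in DMSO libraries. No macrophage or monocyte marker below the filter had more counts in the DMSO group than in the doxorubicin group. ITGAM had 30 counts in the doxorubicin group and 1 in DMSO, MRC1 18 and 0, and LYZ 17 and 0. Of the 3 that passed, PTPRC and CD14 were not called. CSF1R, the macrophage growth factor receptor, was the 1 of 3 that fell (33.3%, beside 32.0% of all tested genes). CSF1R had 1.25 ± 0.112 CPM after doxorubicin and 2.03 ± 0.147 CPM in DMSO (SD, n = 3 each). Its call was lost without doxorubicin replicate 3 (adjusted p = 0.0812), without DMSO replicate 2 (0.0712) and with DESeq2 (0.131). The part of any change in cell state or RNA content in the lysosomal values was not tested, and in bulk RNA fewer cells with a transcript cannot be told apart from less of it per cell.

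The lysosomal genes moved in both directions after doxorubicin, and more of them rose than fell. All 38 passed the expression filter, 18 rose, 11 fell and 9 were not called, where a call needed an adjusted p below 0.05 from the quasi-likelihood test of edgeR. The rising share was 47.4%, where 32.7% of all 15358 tested genes were called higher. The falling share was 28.9%, near the 32.0% of all tested genes called lower. Calls in either direction covered 76.3% of the members and 64.7% of tested genes. In 28 members the 3 doxorubicin values lay wholly above or below the 3 DMSO values, which is 73.7% of the members and 69.1% of tested genes. The median log2 fold change was 0.30 over the members and -0.0013 over all tested genes. Changes of at least 2-fold were increases: FUCA1, IDUA, GAA, CTSB and ARSA, 5 of 38 or 13.2%, against 14.2% of all tested genes that rose as much. The steepest fall was that of PPT1, at 1.82-fold.

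**Figure D1:**
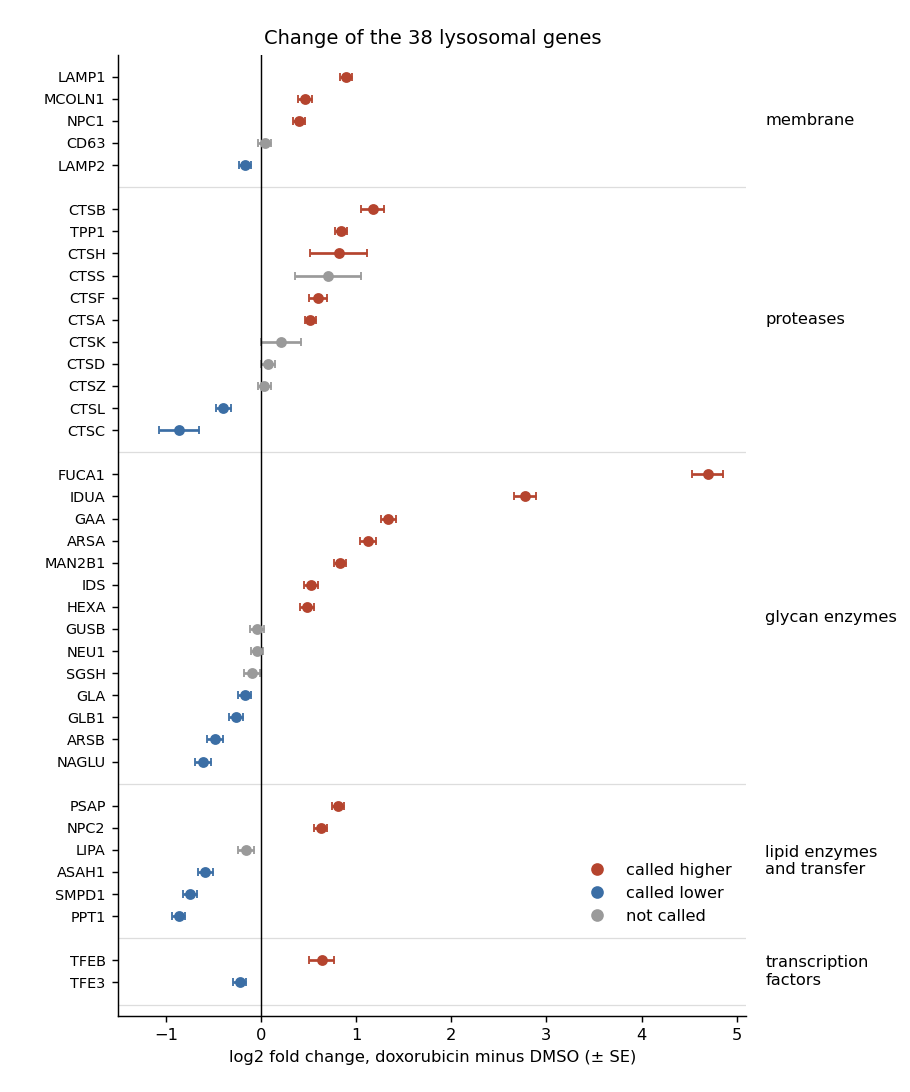
Log2 fold change of each of the 38 genes, doxorubicin minus DMSO, with bars of 1 SE on a common horizontal axis, grouped by role from top to bottom. Red points were called higher (18 genes), blue points lower (11) and grey points were not called (9), and FUCA1 at 4.69 and IDUA at 2.78 stand farthest to the right.

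Levels of different genes were compared per length, in TPM (counts per exon length, scaled to a common total). PSAP, which encodes the precursor of the saposins, was the most abundant member in both groups, with 1527 ± 73.5 TPM after doxorubicin and 850 ± 16.8 TPM in DMSO (SD, n = 3 each). CD63, a tetraspanin of late endosomes and lysosomes, came next in both groups, with 874 TPM after doxorubicin and 830 TPM in DMSO. CTSH and CTSS were the least abundant, at 1.66 and 1.99 TPM after doxorubicin and at 0.924 and 1.19 TPM in DMSO. The 38 levels summed to 6311 ± 224 TPM after doxorubicin and 4631 ± 108 TPM in DMSO. The sum over the 3 doxorubicin libraries was 6053 to 6451 TPM, above the 4507 to 4709 TPM of the DMSO libraries. PSAP was 677 TPM higher after doxorubicin, CTSB 289 TPM and LAMP1 255 TPM. FUCA1 stood at order 9 of the 38 after doxorubicin with 135 TPM, and at order 36 in DMSO with 5.08 TPM.

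**Figure D2:**
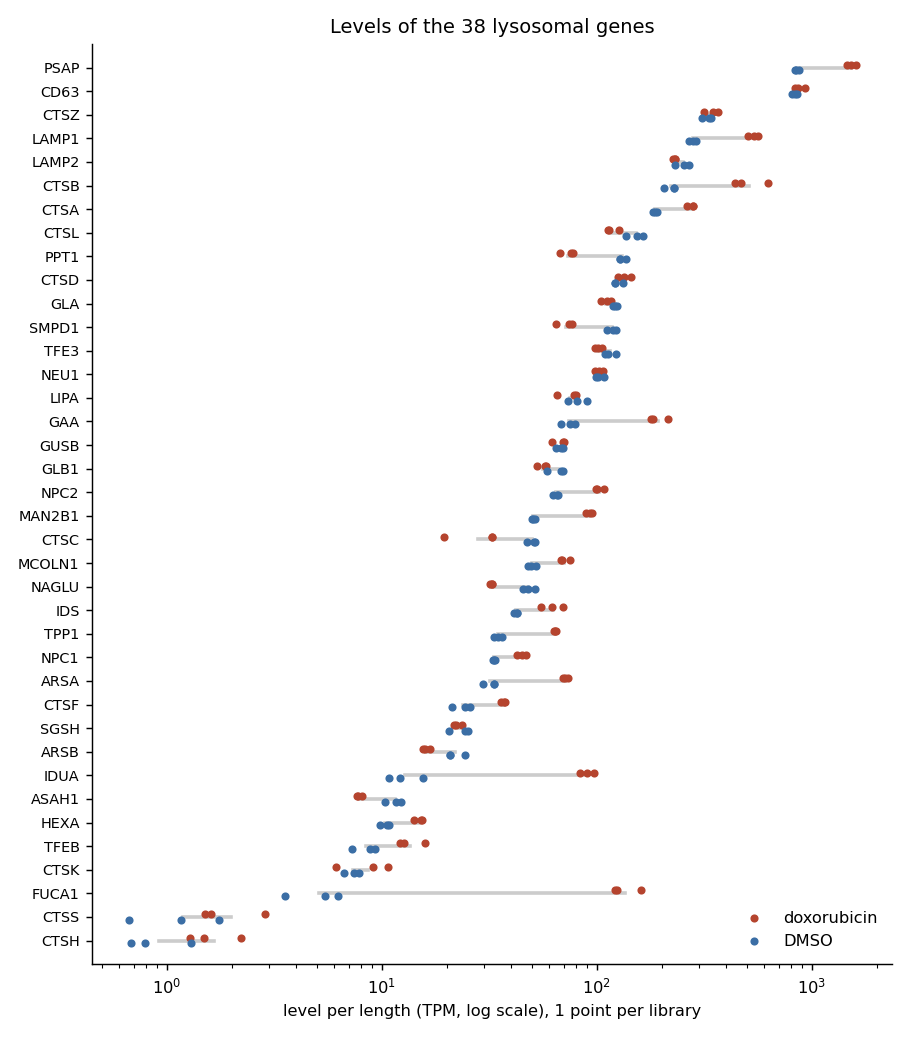
Level of each gene per length (TPM, log scale), 1 point per library, doxorubicin in red and DMSO in blue, with a grey line between group means and genes ordered by their DMSO mean. PSAP and CD63 lead at the top, and FUCA1 and IDUA have the longest grey lines, with the doxorubicin points on the right.

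Among the membrane genes, LAMP1, the cholesterol exporter NPC1 and the calcium channel MCOLN1 rose, LAMP2 fell slightly and CD63 was not called. LAMP1 (chr13:113297241-113323672, GRCh38) encodes a heavily glycosylated protein that lines the lysosomal membrane. It had 723, 646 and 713 CPM in doxorubicin replicates 1 to 3, against 366, 387 and 365 CPM in DMSO replicates 1 to 3. Every doxorubicin value lay far above every DMSO value, a 1.86-fold rise (log2 fold change 0.90 ± 0.06 SE, adjusted p = 3.77e-09). LAMP2 (chrX:120427827-120469365), its relative, which also serves chaperone-mediated autophagy, had 282, 284 and 294 CPM after doxorubicin, against 335, 329 and 302 CPM in DMSO. The groups did not overlap, but the fall was 1.12-fold (log2 fold change -0.17 ± 0.06 SE, adjusted p = 0.0236). It was no longer called with library totals only (adjusted p = 0.0796) or without doxorubicin replicate 2 (0.0677), doxorubicin replicate 3 (0.0524), DMSO replicate 1 (0.0718) or DMSO replicate 2 (0.0789). MCOLN1, the lysosomal calcium release channel, rose 1.38-fold to 63.2 ± 3.44 CPM after doxorubicin, against 45.8 ± 2.87 CPM in DMSO (SD, n = 3 each). NPC1 rose 1.32-fold to 103 ± 4.09 CPM after doxorubicin, against 77.7 ± 0.542 CPM in DMSO. CD63 had 521 ± 36.7 CPM after doxorubicin and 507 ± 22.6 CPM in DMSO, and its groups overlapped (adjusted p = 0.630). Exons of opposite-strand RMC1, which rose, cover 5.98% of the exon bases of NPC1.

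The promoters of the members were read for the core of the CLEAR element, since TFEB and TFE3 are known to bind it. RefSeq promoter windows (GRCh38.p14), from 250 bases before to 50 bases after the annotated start, were at hand for 28 of the 38 members. The 6-base E-box core CACGTG, which reads the same on both strands, was present for 9 of the 28 (32.1%), namely LAMP1, GAA, MCOLN1, CTSA, CTSF, CTSD, CD63, NEU1 and ARSB. Of all 27305 genes with a window, 8.77% had it, and 12.3% of the 11205 that were also tested. The longer match TCACGTGA, which contains the core and also reads the same on both strands, was present for 4 of the 28 (14.3%), against 1.18% of all genes with a window and 2.17% of the tested ones. These 4 were LAMP1, GAA, MCOLN1 and CTSA, and their upstream stretches are shown because each holds the longer match, with the core in capitals.
LAMP1: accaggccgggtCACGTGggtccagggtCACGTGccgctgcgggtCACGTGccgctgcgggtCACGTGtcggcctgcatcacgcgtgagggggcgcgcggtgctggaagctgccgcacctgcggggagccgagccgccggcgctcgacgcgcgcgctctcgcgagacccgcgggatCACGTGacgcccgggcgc
GAA: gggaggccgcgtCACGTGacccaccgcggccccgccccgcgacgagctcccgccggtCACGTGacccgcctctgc
MCOLN1: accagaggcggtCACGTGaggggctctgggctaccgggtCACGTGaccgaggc
CTSA: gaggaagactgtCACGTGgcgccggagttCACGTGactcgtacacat

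The LAMP1 stretch lies at chr13:113297035-113297228, plus strand, and holds 5 cores, of which the last, 28 bases before the start, is part of a longer match. The core of another longer match begins 1 base before the start and is not shown. The GAA stretch lies at chr17:80101493-80101567, plus strand, with the cores of its longer matches beginning 76 and 31 bases before the start. In MCOLN1 (chr19:7522571-7522623, plus strand) these cores begin 41 and 14 bases before the start. In CTSA (chr20:45891281-45891327, plus strand) the core begins 42 bases before the start and the longer match's core 25 bases before it. All 4 genes with the longer match rose, with log2 fold changes of 0.46 to 1.34. Among the 24 members with a window but no longer match, 10 rose, 8 fell and 6 were not called, with a median log2 fold change of 0.04. Of the 9 with the core, 5 rose (55.6%), 1 fell and 3 were not called. Of the 19 members with a window but no core, 9 rose (47.4%), 7 fell and 3 were not called. Among all tested genes with a window, 468 of 1376 with the core rose (34%), against 3202 of 9829 without it (32.6%). Over all tested genes with a window, 85 of 243 with TCACGTGA rose (35%), against 3585 of 10962 without it (32.7%). These counts were not tested, and a match does not show that a factor is bound.

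**Figure D3:**
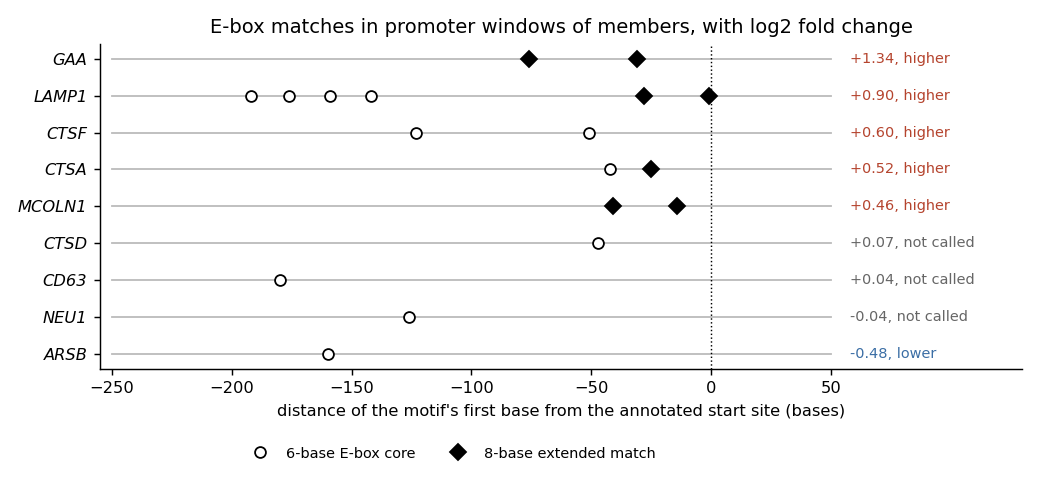
Position of each E-box match in the promoter windows of the 9 members that have one, as the distance in bases of the core's first base from the annotated start site, with the log2 fold change at the right. Filled diamonds are the longer match and open circles the core alone, and the 4 genes with a diamond, GAA, LAMP1, CTSA and MCOLN1, were all called higher.

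Of the 11 protease genes, CTSA, CTSB, CTSF, CTSH and TPP1 rose and CTSC and CTSL fell, while CTSD, CTSK, CTSS and CTSZ were not called. That is 45.5% higher and 18.2% lower, beside 32.7% and 32.0% of all tested genes. CTSB (chr8:11842524-11869448), a cysteine cathepsin that can also act outside the lysosome, rose most. It had 1044, 729 and 800 CPM in doxorubicin replicates 1 to 3, against 385, 398 and 359 CPM in DMSO replicates 1 to 3. The lowest doxorubicin value was well above the highest DMSO value, and replicate 1 stood above the other doxorubicin libraries. The rise was 2.25-fold (log2 fold change 1.17 ± 0.12 SE, adjusted p = 3.0e-05), and without doxorubicin replicate 1 the log2 fold change was 1.01. TPP1, a tripeptidyl peptidase lost in a childhood neuronal storage disease, rose 1.80-fold to 94.8 ± 0.819 CPM after doxorubicin, against 52.8 ± 1.28 CPM in DMSO (SD, n = 3 each). CTSF, a cysteine cathepsin, rose 1.51-fold to 24.1 ± 0.778 CPM after doxorubicin, against 15.95 ± 1.30 CPM in DMSO. CTSA, a serine carboxypeptidase, rose 1.43-fold to 363 ± 7.79 CPM after doxorubicin, against 253 ± 3.52 CPM in DMSO. CTSH, an aminopeptidase, was low, with 2.22 ± 0.657 CPM after doxorubicin and 1.26 ± 0.419 CPM in DMSO. The CTSH groups overlapped, and its call (adjusted p = 0.0252) was lost without doxorubicin replicate 1 (0.134), DMSO replicate 2 (0.112) or DMSO replicate 3 (0.0742) and with DESeq2 (0.0968).

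CTSC (chr11:88293592-88337787), the dipeptidyl peptidase that activates serine proteases of leukocyte granules, had 49.9, 82.6 and 85.5 CPM in doxorubicin replicates 1 to 3, against 133, 137 and 128 CPM in DMSO replicates 1 to 3. All doxorubicin values were lower, and replicate 1 was the lowest. The fall was 1.82-fold (log2 fold change -0.87 ± 0.21 SE, adjusted p = 0.0152). Without doxorubicin replicate 1 the log2 fold change was -0.66, and without DMSO replicate 1 the call was lost (adjusted p = 0.0518). CTSL, a broad cysteine endopeptidase, fell 1.32-fold to 63.1 ± 4.98 CPM after doxorubicin, against 83.1 ± 6.18 CPM in DMSO (SD, n = 3 each). CTSD, the main aspartic protease of the lysosome, had 95.4 ± 7.95 CPM after doxorubicin and 90.8 ± 6.01 CPM in DMSO (adjusted p = 0.414). Of the exon bases of CTSD, 52.7% are shared with other genes, and reads there may have been left uncounted, so its level is uncertain. CTSZ, a carboxypeptidase, had 158 ± 14.2 CPM after doxorubicin and 155 ± 5.61 CPM in DMSO. CTSK, the collagen-degrading cathepsin of osteoclasts, had 3.70 ± 1.02 CPM after doxorubicin and 3.21 ± 0.196 CPM in DMSO. CTSS, a cathepsin of antigen-presenting cells, had 1.91 ± 0.715 CPM after doxorubicin and 1.16 ± 0.507 CPM in DMSO (adjusted p = 0.0847), and passed without DMSO replicate 1 (adjusted p = 0.0272) or with the replicate number as a block (0.0403).

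The 14 enzymes of glycan breakdown held the largest changes, with 7 that rose (50%), 4 that fell (28.6%) and 3 that were not called. Over all tested genes, 32.7% rose and 32.0% fell. FUCA1 (chr1:23845077-23868294) encodes the alpha-L-fucosidase that removes fucose from glycoproteins and glycolipids, and it is known as a direct p53 target. It had 73.9, 56.7 and 57.0 CPM in doxorubicin replicates 1 to 3, against 2.91, 2.60 and 1.71 CPM in DMSO replicates 1 to 3. The gene was scarce in every DMSO library and well expressed in every doxorubicin library. The rise was 25.9-fold (log2 fold change 4.69 ± 0.16 SE, adjusted p = 5.49e-11). IDUA (chr4:986997-1004506), the iduronidase of heparan and dermatan sulfate breakdown, had 75.1, 86.8 and 82.9 CPM after doxorubicin, against 11.01, 10.1 and 14.7 CPM in DMSO. The groups lay far apart, a rise of 6.85-fold (log2 fold change 2.78 ± 0.12 SE, adjusted p = 6.5e-11). Exons of the opposite-strand sulfate transporter gene SLC26A1 cover 13.4% of the exon bases of IDUA. SLC26A1 also rose, with 29.8 to 34.5 CPM in doxorubicin libraries against 7.32 to 9.89 CPM in DMSO libraries, and since the libraries carry no strand, its part in the IDUA counts was not tested.

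GAA (chr17:80101556-80119879), the acid alpha-glucosidase that degrades glycogen and is lost in Pompe disease, had 250, 206 and 216 CPM in doxorubicin replicates 1 to 3, against 87.9, 94.7 and 82.7 CPM in DMSO replicates 1 to 3. Every doxorubicin value was more than double every DMSO value, and the rise was 2.53-fold (log2 fold change 1.34 ± 0.08 SE, adjusted p = 3.61e-10). ARSA (chr22:50622754-50628173), the sulfatase of myelin sulfatide, had 46.8, 45.8 and 49.7 CPM after doxorubicin, against 22.0, 20.1 and 23.1 CPM in DMSO. Its groups were tight and separate, with a 2.18-fold rise (log2 fold change 1.13 ± 0.08 SE, adjusted p = 5.58e-09). MAN2B1, the lysosomal alpha-mannosidase, rose 1.78-fold to 112 ± 4.85 CPM after doxorubicin, against 63.1 ± 0.544 CPM in DMSO (SD, n = 3 each). IDS, the iduronate sulfatase, rose 1.44-fold to 131 ± 14.2 CPM after doxorubicin, against 90.9 ± 2.43 CPM in DMSO. HEXA, the alpha subunit of beta-hexosaminidase A, rose 1.40-fold to 42.5 ± 1.42 CPM after doxorubicin, against 30.4 ± 1.18 CPM in DMSO. IDS has a near-identical pseudogene, so its counts could be split.

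GLB1 (chr3:32996608-33097230), the beta-galactosidase behind the senescence stain, fell. It had 51.8, 55.8 and 58.4 CPM in doxorubicin replicates 1 to 3, against 69.2, 69.7 and 60.7 CPM in DMSO replicates 1 to 3. The groups did not overlap, though DMSO replicate 3 lay close to the doxorubicin values, and the fall was 1.20-fold (log2 fold change -0.27 ± 0.08 SE, adjusted p = 0.00581). NAGLU, the alpha-N-acetylglucosaminidase of heparan sulfate, fell 1.53-fold to 22.0 ± 0.594 CPM after doxorubicin, against 33.5 ± 2.61 CPM in DMSO (SD, n = 3 each). ARSB, the sulfatase of dermatan sulfate, fell 1.40-fold to 33.0 ± 1.84 CPM after doxorubicin, against 46.1 ± 3.40 CPM in DMSO. GLA, the alpha-galactosidase lost in Fabry disease, fell 1.13-fold to 51.8 ± 3.32 CPM after doxorubicin, against 58.4 ± 0.831 CPM in DMSO (adjusted p = 0.0414). That call was lost in 10 of 14 alternative analyses, among them RLE scaling (adjusted p = 0.0546), DESeq2 (0.0853) and the runs without doxorubicin replicate 1 (0.126), doxorubicin replicate 2 (0.0988), DMSO replicate 1 (0.0621), DMSO replicate 2 (0.0685) or DMSO replicate 3 (0.0790). GUSB, the beta-glucuronidase, had 60.7 ± 5.02 CPM after doxorubicin and 62.4 ± 1.63 CPM in DMSO. The sialidase gene NEU1 had 112 ± 6.38 CPM after doxorubicin and 115 ± 2.57 CPM in DMSO. SGSH, the sulfamidase of heparan sulfate, had 34.1 ± 1.75 CPM after doxorubicin and 36.4 ± 3.39 CPM in DMSO, and none of these 3 was called (adjusted p = 0.658, 0.586 and 0.361 by edgeR). GUSB also has near-identical pseudogenes.

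**Figure D4:**
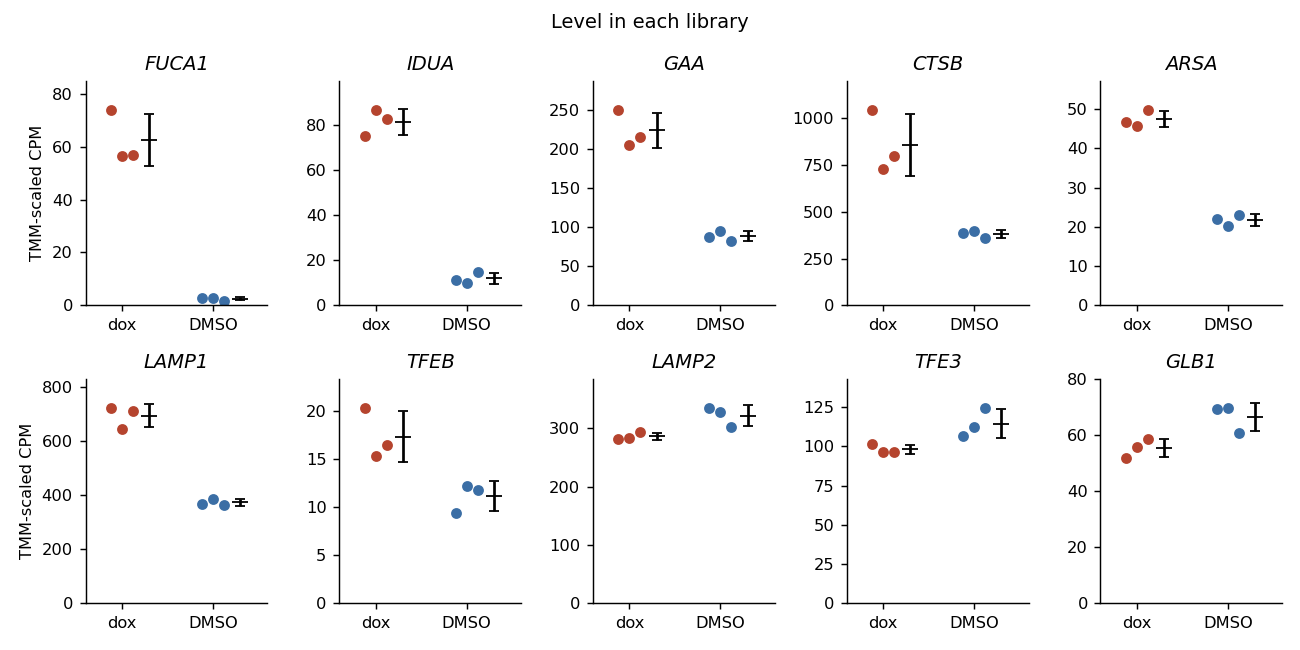
TMM-scaled CPM in each library for the 5 genes that rose at least 2-fold and for LAMP1, TFEB, LAMP2, TFE3 and GLB1, with doxorubicin (dox) left of DMSO in each panel, axes starting at 0 and a bar for the mean ± SD of 3 libraries. The groups do not overlap in any of the 10 panels, and LAMP2, TFE3 and GLB1 are the panels in which the doxorubicin points sit lower.

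Enzymes that act on 1 substrate or in 1 complex moved in different directions. Heparan sulfate is cut by a chain of enzymes, of which IDS and IDUA rose, NAGLU fell, and SGSH and GUSB were not called. HGSNAT, the acetyltransferase of that chain in the lysosomal membrane, rose 2.46-fold to 106 ± 4.14 CPM after doxorubicin, against 43.1 ± 1.54 CPM in DMSO (SD, n = 3 each). CTSA protects GLB1 and NEU1 in a lysosomal complex, and CTSA rose, GLB1 fell and NEU1 was not called. NPC1 and NPC2, which hand cholesterol out of the lysosome in turn, both rose.

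In the lipid group 2 of 6 genes rose (33.3%) and 3 fell (50%), beside 32.7% and 32.0% of all tested genes. The median change of the group on the log2 scale was -0.37. PSAP (chr10:71816298-71851375), the precursor of the saposins, which present sphingolipids to their hydrolases, rose 1.75-fold to 1120 ± 71.3 CPM after doxorubicin, against 639 ± 0.806 CPM in DMSO (adjusted p = 1.13e-08). NPC2, the soluble cholesterol carrier, rose 1.54-fold to 63.6 ± 2.94 CPM after doxorubicin, against 41.2 ± 0.816 CPM in DMSO (SD, n = 3 each). PPT1 (chr1:40071461-40097727), the thioesterase that strips fatty acids from proteins, had 77.4, 86.6 and 91.0 CPM in doxorubicin replicates 1 to 3, against 158, 153 and 153 CPM in DMSO replicates 1 to 3. All doxorubicin values lay below all DMSO values, and the log2 fold change was -0.87 ± 0.07 SE (adjusted p = 1.29e-08). Exons of opposite-strand CAP1 cover 23.4% of the exon bases of PPT1, and CAP1 had 313 to 325 CPM in doxorubicin libraries against 373 to 392 CPM in DMSO libraries, so its part in the PPT1 counts was not tested. SMPD1, the acid sphingomyelinase, which releases ceramide, fell 1.68-fold to 44.7 ± 3.95 CPM after doxorubicin, against 75.1 ± 3.19 CPM in DMSO. ASAH1, the acid ceramidase, which degrades ceramide, fell 1.5-fold to 27.2 ± 0.552 CPM after doxorubicin, against 40.9 ± 2.92 CPM in DMSO. LIPA, the acid lipase of cholesteryl esters, had 83.0 ± 9.03 CPM after doxorubicin and 92.7 ± 7.29 CPM in DMSO (adjusted p = 0.104), and passed as lower without DMSO replicate 3 (0.0378) or with no filter on low counts (0.0336).

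The transcription factor genes moved in opposite directions. TFEB (chr6:41683978-41736259) had 20.3, 15.3 and 16.4 CPM in doxorubicin replicates 1 to 3, against 9.33, 12.2 and 11.8 CPM in DMSO replicates 1 to 3. All doxorubicin values were higher, a rise of 1.56-fold (log2 fold change 0.64 ± 0.13 SE, adjusted p = 4.74e-04). TFE3 (chrX:49028726-49043486) had 102, 96.5 and 96.4 CPM after doxorubicin, against 107, 113 and 125 CPM in DMSO. All doxorubicin values were lower, by a small margin over DMSO replicate 1, and the fall was 1.17-fold (log2 fold change -0.22 ± 0.07 SE, adjusted p = 0.00916). The call was lost without doxorubicin replicate 3 (adjusted p = 0.0506) or DMSO replicate 3 (0.0513). Per length TFE3 remained the more abundant, with 101 TPM against 13.5 TPM for TFEB after doxorubicin, and with 115 TPM against 8.45 TPM in DMSO. Transcript levels do not show how much of either protein was in the nucleus.

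Beyond the 38 genes, 131 further genes of the lysosome and its supply lines were read from 6 lists, and 116 passed the expression filter. Of these, 51 rose (44.0%) and 23 fell (19.8%), and the median on the log2 scale was 0.17, where 32.7% of all tested genes rose and 32.0% fell. The V-ATPase, the pump that acidifies the lysosome, had 12 of 20 measured genes higher (60%) and 1 lower (5%), beside the same 32.7% and 32.0% over all tested genes. ATP6AP2, an accessory subunit also known as the prorenin receptor, rose 2.29-fold to 288 ± 8.45 CPM after doxorubicin, against 126 ± 6.18 CPM in DMSO (SD, n = 3 each). ATP6V1G1, a subunit of the pump's stalk, rose 1.65-fold to 98.5 ± 5.20 CPM after doxorubicin, against 59.6 ± 2.01 CPM in DMSO. ATP6V0E2, a small membrane subunit, fell 3.29-fold to 1.65 ± 0.215 CPM after doxorubicin, against 5.46 ± 0.606 CPM in DMSO.

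Of 30 other hydrolases and cofactors measured, 11 rose (36.7%), 9 fell (30%) and 10 were not called, with a median log2 fold change of 0.13, and these shares are near the 32.7% and 32.0% of all tested genes. SIAE, a sialic acid esterase, rose 4.37-fold to 26.3 ± 3.75 CPM after doxorubicin, against 6.01 ± 0.254 CPM in DMSO (SD, n = 3 each). Of the exon bases of SIAE, 36.6% are shared with other genes, most with opposite-strand TBRG1, which had 2817 counts beside 1762 for SIAE, and its part in the SIAE counts was not tested. HPSE, the heparanase that cuts heparan sulfate chains, fell 3.44-fold to 6.80 ± 0.916 CPM after doxorubicin, against 23.4 ± 4.85 CPM in DMSO. GALC, the galactosylceramidase lost in Krabbe disease, fell 2.54-fold to 4.66 ± 0.574 CPM after doxorubicin, against 11.8 ± 0.501 CPM in DMSO. Of 27 other membrane genes measured, 11 rose (40.7%) and 6 fell (22.2%), and their median log2 fold change was 0.07. LAPTM5, a lysosomal protein best known from blood cells, rose 20.6-fold to 7.25 ± 2.15 CPM after doxorubicin, against 0.346 ± 0.0942 CPM in DMSO. SIDT2, a lysosomal RNA transport protein, rose 3.81-fold to 117 ± 4.49 CPM after doxorubicin, against 30.8 ± 2.96 CPM in DMSO. LMBRD1, which takes part in cobalamin export, fell 1.97-fold to 8.06 ± 1.07 CPM after doxorubicin, against 15.9 ± 2.33 CPM in DMSO. TPCN2, a 2-pore channel, fell 1.69-fold to 13.7 ± 1.40 CPM after doxorubicin, against 23.1 ± 1.29 CPM in DMSO.

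**Figure D5:**
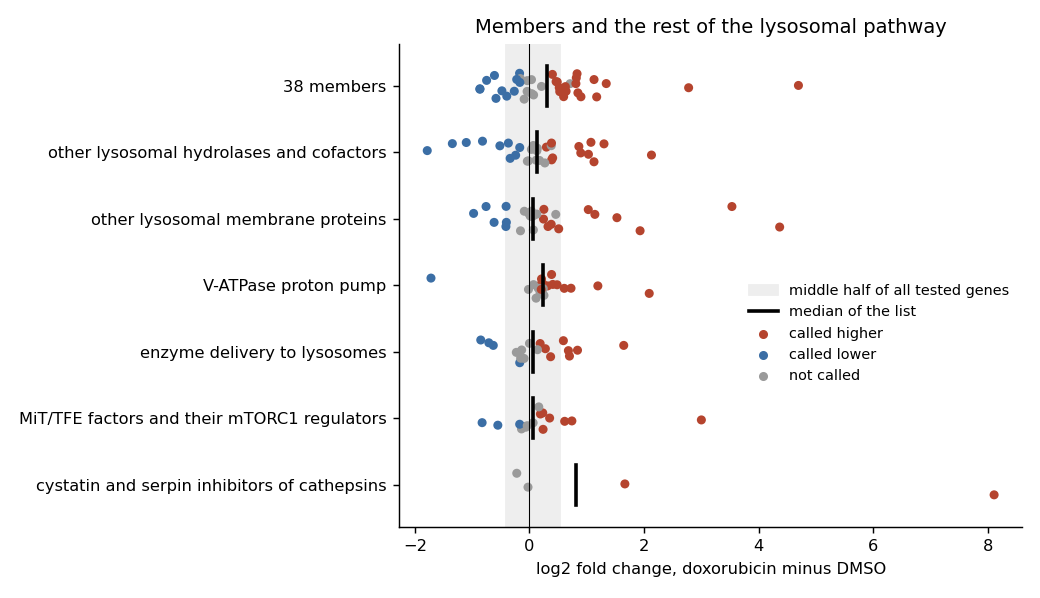
Log2 fold change, doxorubicin minus DMSO, of each measured gene in the 38 members and in 6 further lysosomal lists, 1 row per list, with a black bar at the list median and a grey band from the first to the third quartile of all tested genes. The V-ATPase row holds 12 genes called higher and 1 called lower, and the CSTA point of the inhibitor row lies farthest to the right at 8.11, on 2 counts in the DMSO group.

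Of 18 genes that deliver enzymes to lysosomes, 8 rose (44.4%) and 4 fell (22.2%), beside 32.7% and 32.0% of all tested genes, and their median log2 fold change was 0.07. CLN8, an endoplasmic reticulum receptor for newly made enzymes, rose 3.13-fold to 67.5 ± 1.5 CPM after doxorubicin, against 21.6 ± 0.818 CPM in DMSO (SD, n = 3 each). GNPTG, a subunit of the enzyme that starts the mannose 6-phosphate tag, rose 1.79-fold to 72.4 ± 3.70 CPM after doxorubicin, against 40.5 ± 1.81 CPM in DMSO. Exons of opposite-strand genes overlap GNPTG (UNKL, over 22.2% of its exon bases) and M6PR (PHC1, over 29.3%), and their part in these counts was not tested. The 4 that fell were the sorting receptor SORT1 (1.80-fold), the enzyme transport factor CLN6 (1.63-fold), NAGPA (1.55-fold), which uncovers the tag, and the mannose 6-phosphate receptor M6PR (1.13-fold). M6PR lost its call with library totals only (adjusted p = 0.0811) or without doxorubicin replicate 1 (0.0594), doxorubicin replicate 3 (0.0778) or DMSO replicate 2 (0.101).

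Among 17 measured MiT/TFE factors and regulators of mTORC1, 7 rose (41.2%) and 3 fell (17.6%), beside 32.7% and 32.0% of all tested genes. Their median log2 fold change was 0.06, and 3 rose without DMSO replicate 2. RRAGC, a GTPase that recruits mTORC1 to the lysosome, rose 1.67-fold to 31.6 ± 1.62 CPM after doxorubicin, against 18.9 ± 1.78 CPM in DMSO (SD, n = 3 each). FLCN, which acts on that GTPase, rose 1.53-fold to 65.8 ± 5.15 CPM after doxorubicin, against 43.0 ± 1.41 CPM in DMSO. The 3 that fell were the mTOR partner MLST8 (1.77-fold), the Ragulator subunit LAMTOR5 (1.47-fold) and RPTOR (1.13-fold), the scaffold of mTORC1. The RPTOR call was lost with RLE scaling (adjusted p = 0.0541), upper-quartile scaling (0.0518), library totals only (0.108), DESeq2 (0.0650), or without doxorubicin replicate 2 (0.159), doxorubicin replicate 3 (0.127) or DMSO replicate 2 (0.124).

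Only 4 of 9 inhibitors of cathepsins passed the expression filter, and 2 of these 4 rose (50%), beside 32.7% of all tested genes. CST3, cystatin C, the main secreted inhibitor of cysteine cathepsins, rose 3.17-fold to 282 ± 30.6 CPM after doxorubicin, against 88.8 ± 4.81 CPM in DMSO (SD, n = 3 each). CSTA, cystatin A, a cytosolic inhibitor known from skin, had 642 counts in the doxorubicin group and 2 in the DMSO group, a ratio of 335 with an exact 95% counting interval of 92.3 to 2770, which covers counting error only. CSTB, cystatin B, had 67.2 ± 5.70 CPM after doxorubicin and 68.4 ± 5.77 CPM in DMSO, and CST6 had 1.21 ± 0.310 CPM after doxorubicin and 1.41 ± 0.344 CPM in DMSO, and neither was called.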

How the data were processed

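Poly(A) RNA of AC16 cells was sequenced from 3 libraries treated with doxorubicin and 3 treated with DMSO, unstranded, per the labels' protocols. The authors deposited raw counts per gene in a featureCounts layout, per the file headers. STAR, SAMtools, Subread and featureCounts, with the build GRCh38, are named in the submitters' processing notes. Versions, the annotation and the treatment of overlapping genes are not given in the sources used here. The labels do not say that replicates were separate cultures, so p-values cover the spread between these libraries, which may be technical. Chi-square over degrees of freedom between libraries of 1 group was 2.82 to 9.39, so no pair counted as 1 library. No columns of other samples were present (0).

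Symbols came from a gene name table (57717 of 58299 identifiers), with GENCODE release 29 for the rest. Coordinates are those of the table, first to last exon. The test of the counts was made in edgeR 4.0.16 under R 4.3.3 (filterByExpr with minimum count 10 and minimum total 15, TMM scaling, robust quasi-likelihood F test, two-sided, no covariates), with Benjamini-Hochberg adjustment over 15358 genes, and called at an adjusted p under 0.05. SE was taken as the size of the log2 change over the root of F. CPM values are TMM-scaled except the summed marker levels, which use library totals. TPM was computed from counts and exon length over the whole table. The procedure was also run on simulated counts in which far fewer genes changed than here. That run does not check the scaling or the calls under the conditions of these data. Same-numbered libraries of the 2 groups did not deviate together, so no pairing was used.

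The members and lists were chosen with earlier results of these data known. All members may be named, with values per library for those called at 2-fold or more, for LAMP1, LAMP2, GLB1, TFEB and TFE3, and, chosen after their values were seen, for CTSC and PPT1. From each further list the text takes the 2 called genes that changed most in each direction at a mean log2 CPM no lower than 1, and every called gene where 5 or fewer moved one way. Alternatives were DESeq2 1.42.0, RLE, upper-quartile and total scaling, no filter, 1 CPM in 3 libraries, the 50 most abundant genes left out, the replicate block and each library left out. Some genes of the further lists are not reported here.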

Additional observations from a re-analysis of the deposited data

How the results depend on the processing

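Of the 29 called members, 24 kept call and direction in all 14 alternatives, and LAMP2, CTSC, CTSH, GLA and TFE3 lost the call in at least 1, with the values given in the report. The number of members called higher was 17 to 19 and the number called lower 8 to 12 over those alternatives. The members' median log2 fold change was 0.23 to 0.37 with 1 library left out, lowest without doxorubicin replicate 3 and highest without doxorubicin replicate 1. Direction reversed in 5 of 532 member values, all of genes not called: CD63 was at -0.0060 without doxorubicin replicate 3 and -0.0048 without DMSO replicate 1, CTSZ at -0.015 without doxorubicin replicate 3, and GUSB at 0.0013 with library totals only and 0.028 without doxorubicin replicate 2. With 1 library left out these ranged from -0.0060 to 0.083 for CD63, from -0.015 to 0.10 for CTSZ and from -0.068 to 0.028 for GUSB. The count of MiT/TFE factors and mTORC1 regulators called higher was 4 with no filter, 3 with DESeq2, and 3 to 7 with 1 library left out, and the cause was not tested. With the replicate block, 19 members were higher and 11 lower, CTSS being the 1 gained. The replicate numbers carry no stated pairing, and deviations of same-numbered libraries correlated at 0.052, -0.023 and 0.027, so not every library matched its own number best. With the longer E-box match, 4 members in place of 9 had a promoter match, as the longer word contains the shorter. No filter removed a member from testing. Counts with no strand and reads in overlapping exons limit the 10 members with over 10% of exon bases shared (CTSD, CTSA, PPT1, MAN2B1, IDS, HEXA, TPP1, IDUA, NAGLU and GLB1), and depth limits CTSH, CTSS and CTSK, which had 189, 167 and 379 counts in all libraries together.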

Other observations

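For 7 of the 38 members, the neighbouring gene that shares the most exon bases with the member was itself tested. Other genes that share bases with a member were not counted. Of these 7 neighbours, 5 were called higher and 2 lower, where 32.7% of all tested genes were called higher and 32.0% lower. NEURL2, which overlaps CTSA on the opposite strand over 17.7% of its exon bases, had 4.70 to 6.02 CPM in doxorubicin libraries against 0 to 0.331 CPM in DMSO libraries, and 297 counts in all beside 33736 for CTSA. RMC1, which overlaps NPC1 and encodes a partner of a guanine nucleotide exchange complex of late endosomes, had 51.1 to 53.2 CPM in doxorubicin libraries against 31.2 to 32.2 CPM in DMSO libraries (adjusted p = 2.0e-07, edgeR). ISCA2, an iron-sulfur cluster assembly gene that overlaps NPC2, had 9.01 to 10.3 CPM in doxorubicin libraries against 13.4 to 15.4 CPM in DMSO libraries, while NPC2 rose. CAP1, beside PPT1, was also lower, and SLC26A1, CARD14 (beside SGSH) and CD63-AS1 (beside CD63) were higher. Of the 38 members, 21 share no exon base with another gene in the table.

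Promoter windows of the further lysosomal lists held the longer E-box match in 11 of 96 genes (11.5%). Of the 10 that were tested, 7 rose (70%), 1 fell and 2 were not called, beside 32 of 76 that rose without the match (42.1%). Over all tested genes with a window the shares lay close together, with 85 of 243 that rose with the match (35%) and 3585 of 10962 without it (32.7%). IGF2R, the larger mannose 6-phosphate receptor, ATP6V1G1, GNPTG and the tethering subunit VPS11 were among the 7, with log2 fold changes of 0.68 to 0.84. The rest of the 7 rose less: ATP6V0D1 (0.32), RRAGB (0.35) and PLBD2 (0.40). NAGPA was the 1 that fell. These genes were named after their values were seen, and the counts were not tested.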
